A study of Mus musculus with 41 samples.

Results

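The sites described here were genomic positions at which a chromatin immunoprecipitation sequencing (ChIP-seq) peak of Flag-tagged LSD1n and a peak of Flag-tagged LSD1c were both called after 1 h of KCl. They were chosen by measured values: a site of the Flag-LSD1n KCl 1 h list on chromosomes 1 to 19 was kept when it shared at least 1 bp with a site of the Flag-LSD1c KCl 1 h list, and was dropped when it overlapped called regions of all 8 ChIP targets of the series. Of the 4438 sites in the Flag-LSD1n list, 4336 lay on these autosomes and 1496 of them overlapped a Flag-LSD1c site. A further 66 were dropped by the 8-target criterion, which left 1430 sites of both isoforms. The sites set beside them were the 2835 Flag-LSD1n sites without Flag-LSD1c, the 3937 Flag-LSD1c sites without Flag-LSD1n, and all 4265 autosomal Flag-LSD1n sites that passed the same criterion. That criterion dropped only 5 Flag-LSD1n sites without Flag-LSD1c, so it acted mostly on sites of both isoforms. A site without Flag-LSD1c at 1 h could meet it only through a Flag-LSD1c site at 0 h.

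The cells were cortical neurons of mice in primary culture, taken at day 10 in vitro (DIV10) after either 1 h or 0 h in 55 mM KCl, which depolarises neurons. Of 41 samples, 27 had a list of called regions, in 26 groups. Pol II, H3K4me1, H3K36me3 and H4K20me1 were each profiled in LSD1n KO and in LSD1n WT neurons at both times, and H3K4me2 at both times in LSD1n WT neurons. An antibody to LSD1 was used in LSD1n KO neurons with no KCl time in the labels, in LSD1n WT neurons at 0 h, and in neurons labelled wild type at 1 h and 0 h. The Flag tag was precipitated with anti-M2 from R26/LSD1n neurons, for Flag-LSD1n, and from R26/LSD1c neurons, for Flag-LSD1c, at both times; the promoter that drives the tagged proteins and the allele behind the KO are not given in the sources used here. The lists hold positions on mouse build mm9, without a height for any peak, so occupancy was measured as the share of sites that overlapped a called region.

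LSD1 (KDM1A) is a demethylase that removes methyl groups from mono- and dimethylated lysine 4 of histone H3 as part of corepressor complexes. Neurons also splice a small extra exon into part of their LSD1 transcripts, which gives the neuronal isoform LSD1n beside the canonical form LSD1c, and LSD1n has been described as acting on methylated lysine 20 of histone H4. H3K4me2 marks promoters and enhancers, H3K4me1 marks enhancers and the flanks of promoters, and RNA polymerase II (Pol II) gathers at promoters. H3K36me3 and H4K20me1 are marks of gene bodies.

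Total tags ranged from 6990017 to 34859557 per library. Every group but LSD1n WT H4K20me1 at 1 h held 1 library, so no test between groups was run and differences between lists have no replicate check. Nothing in the labels says that the 2 libraries of that group came from separate cultures. Shares are given with 95% exact Clopper-Pearson intervals, which cover counting error over sites only. In each of the 4 Pol II lists, the name written in the entries carries the genotype opposite to that of its sample label. Groups here follow the labels, so Pol II values are those of the libraries labelled KO and WT.

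The 2 isoforms' sites were close to each other in most pairs. Every site was listed at 201 bp, and the median overlap of a pair was 124 bp. The centres of the LSD1n and LSD1c sites were a median of 77 bp apart, with quartiles of 34 and 131 bp, and 521 of the 1430 pairs had centres at most 50 bp apart. Near the threshold that chose the sites, 111 of them overlapped their LSD1c site by at most 20 bp, and 102 sites without LSD1c missed the nearest one by at most 20 bp. Of the 2835 sites without LSD1c, 1148 had an LSD1c site within 1 kb and 1557 had none within 10 kb. Only 16 of the 1430 sites had another within 1 kb and 48 had another within 10 kb.

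The sites were spread over every autosome. Chromosome 2 held the most, at 126 sites. The share of all LSD1n sites that also had LSD1c lay between 29.3% on chromosome 12 (43 of 147) and 38.2% on chromosome 16 (55 of 144). Since every entry of the lists carries the same score, the order of the deposited list was the only ranking of sites. Over 4 successive stretches of the LSD1n list, from its start to its end, the share with both isoforms was 42.8% (419 of 980), 34.5%, 32.6% and 25.3% (276 of 1093). Sites of both isoforms therefore stood earlier in the LSD1n list, at a median position of 1930 against 2425 for sites without LSD1c, and earlier in the LSD1c list, at 2371 against 2912 for LSD1c sites without LSD1n.

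Few of the sites were called for LSD1n without KCl, and more were called for LSD1c. Flag-LSD1n at 0 h overlapped 126 of the 1430 sites, or 8.81% (7.39 to 10.4), against 4.94% of sites without LSD1c and 6.24% of all LSD1n sites. Flag-LSD1c at 0 h overlapped 518 sites, or 36.2% (33.7 to 38.8), against 566 of the 2835 sites without LSD1c and 25.4% of all LSD1n sites. Both shares were above those of the sites that had 1 isoform at 1 h, and their intervals did not overlap. The 0 h lists themselves differ in length: Flag-LSD1n has 940 sites and Flag-LSD1c 3922. Few tags of any Flag library lay in its sites. The shares were 0.0806% (Flag-LSD1n) and 0.257% (Flag-LSD1c) at 0 h, and 0.307% and 0.431% at 1 h. A site without a Flag call at 0 h was therefore not shown to be unbound. When the longer list was cut to the length of the shorter by its order, the difference between the isoforms at these sites shrank to -2.10 percentage points, LSD1n minus LSD1c, against -27.4 with the lists as deposited. The 2 Flag lists come from libraries with different prefixes in the sample titles, so the isoform and the prefix cannot be told apart.

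Both isoforms were called at 0 h at 83 of the 1430 sites (5.80%), against 3.17% of all LSD1n sites. LSD1c alone was called at 0 h at 435 sites (30.4%, against 22.3% of all). LSD1n alone was called at 43 sites (3.01%, against 3.07% of all). At 869 sites, or 60.8%, neither isoform was called at 0 h, against 71.5% of all LSD1n sites and 76.9% of those without LSD1c. By overlap of 1 bp, most of the sites thus had no Flag call at 0 h. In a window of 500 bp this did not hold for LSD1c: Flag-LSD1n at 0 h was called within it at 183 sites (12.8%) and Flag-LSD1c at 738 (51.6%), against 7.97% and 38.5% of sites without LSD1c. Flag-LSD1c at 0 h was also nearer: the median distance to the nearest 0 h LSD1c centre was 526.5 bp for sites of both isoforms and 24051 bp for LSD1n sites without LSD1c.

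Pol II was called at about the same share of the sites in every condition. Pol II at 1 h overlapped 956 sites in the library labelled KO, or 66.9% (64.3 to 69.3), and 952 sites in the library labelled WT, or 66.6% (64.1 to 69.0). At 0 h it overlapped 939 sites labelled KO, or 65.7% (63.1 to 68.1), and 932 labelled WT, or 65.2% (62.6 to 67.6). The background over all LSD1n sites was 53.5% labelled KO and 51.7% labelled WT at 1 h, and 52% labelled KO and 51.5% labelled WT at 0 h. The 4 shares of the sites of both isoforms lay inside one another's intervals, and each was above that of LSD1n sites without LSD1c, which lay between 44.1% and 46.7%. LSD1c sites without LSD1n lay between them, at 56.5% to 59.9%.

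**Figure D1:**
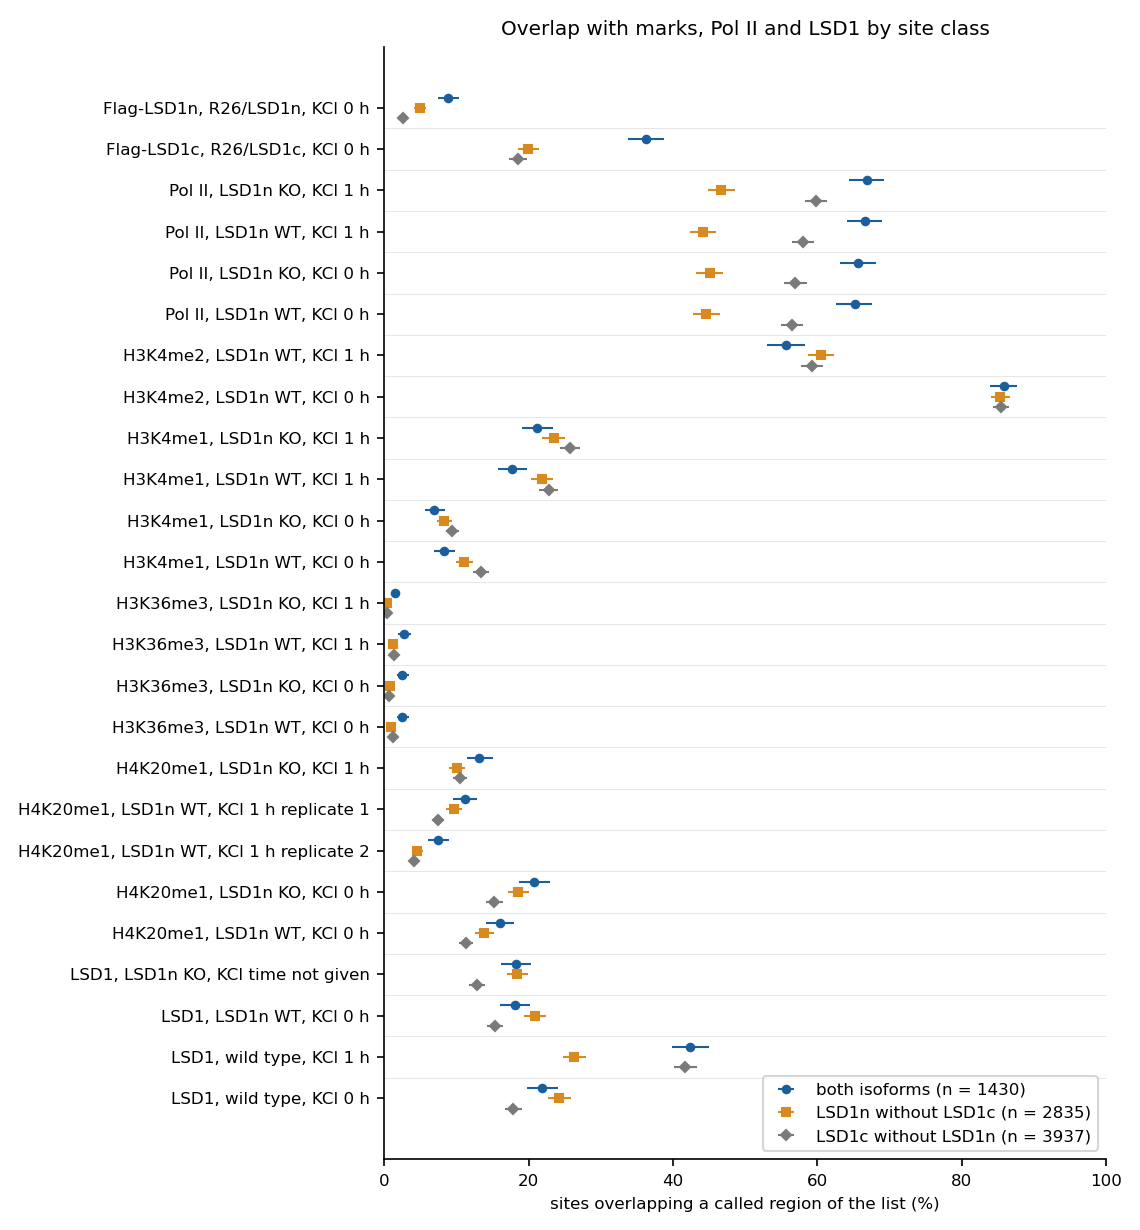
Share of sites (x axis, %) that overlapped a called region of each of 25 ChIP-seq lists (rows), for the 1430 sites of both isoforms, 2835 LSD1n sites without LSD1c and 3937 LSD1c sites without LSD1n; points are shares and lines 95% exact intervals over sites. In the Pol II rows the sites of both isoforms sit at 65.2% to 66.9%, right of the LSD1n sites without LSD1c at 44.1% to 46.7%, while in the H3K4me2 row at 0 h the 3 classes coincide at 85.4% to 85.9%.

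The difference between genotypes in Pol II was 0.28 percentage points at 1 h and 0.49 at 0 h, KO minus WT by label, and 0.14 and 0.35 when the lists were cut to equal lengths. At 1 h, 868 sites had Pol II in both genotypes, 88 in the library labelled KO alone and 84 in that labelled WT alone. At 0 h the counts were 844, 95 and 88. The sites gained and lost between genotypes were thus similar in number. Between 1 h and 0 h the share differed by 1.19 points in KO and 1.40 points in WT, again with gains and losses of similar size (91 and 74 sites in KO, 125 and 105 in WT).

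Pol II was called in all 4 lists at 763 sites (53.4%), against 38.9% of all LSD1n sites and 31.6% of those without LSD1c. No Pol II list overlapped 321 sites (22.4%, against 35.1% of all). Pol II present at 1 h in both genotypes and at 0 h in neither was found at 29 sites (2.03%, against 1.81% of all), and the reverse, present at 0 h in both and at 1 h in neither, at 20 sites (1.40%, against 1.34%). These KCl-specific calls were close to the background. With Pol II counted within 500 bp of a site, the shares were 94.7% (KO) and 94.8% (WT) at 1 h, and 93.8% (KO) and 93.1% (WT) at 0 h. Only 51 sites, or 3.57%, then had none, against 5.91% of all LSD1n sites.

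Sites of both isoforms also lay nearer to the centre of a Pol II peak. The median distance to the nearest Pol II centre was 117 bp (KO, 1 h), 116.5 bp (WT, 1 h), 116 bp (KO, 0 h) and 116 bp (WT, 0 h), against 225 to 242 bp for LSD1n sites without LSD1c and 142 to 163 bp for LSD1c sites without LSD1n. A Pol II centre lay within 100 bp of 44.4% of the sites in the KO library at 1 h, against 29.6% of LSD1n sites without LSD1c. Within a pair, the LSD1c centre was the nearer one to Pol II more often than the LSD1n centre. Among 1320 sites with a Pol II centre within 500 bp in the WT library at 1 h, the LSD1n centre was nearer at 43.0% and the LSD1c centre at 56.4%, with medians of 107 and 95 bp. The other 3 Pol II lists gave 43.7% to 44.5% for LSD1n and 55.0% to 55.8% for LSD1c. The difference in medians was small beside the width of the sites.

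**Figure D2:**
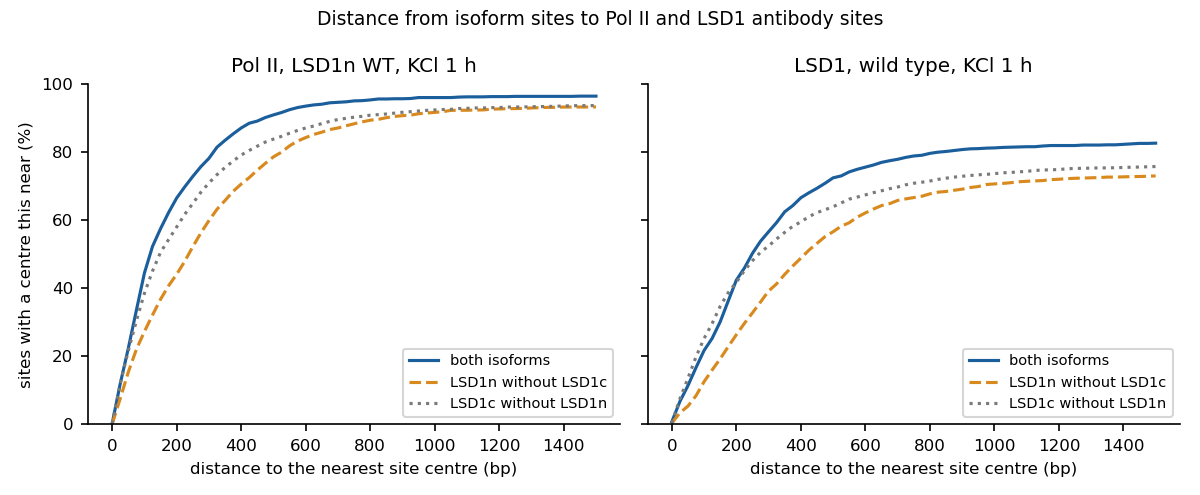
Cumulative share of sites (y axis, %) by distance from the site centre to the nearest site centre of Pol II in the library labelled LSD1n WT at KCl 1 h (left) and of LSD1 in wild type neurons at KCl 1 h (right; x axes, bp). The sites of both isoforms (solid line) reach a given share at a shorter distance than LSD1n sites without LSD1c (dashed) in both panels, with medians of 116.5 against 237 bp for Pol II and 250 against 414 bp for LSD1.

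H3K4me2 was called at most of the sites before KCl and at fewer after it. In LSD1n WT neurons 796 sites overlapped an H3K4me2 region at 1 h, or 55.7% (53.0 to 58.3), and 1228 at 0 h, or 85.9% (84.0 to 87.6). All LSD1n sites had 58.9% at 1 h and 85.5% at 0 h. The share thus differed by -30.2 points, 1 h minus 0 h, at sites of both isoforms, and by -24.8 points at LSD1n sites without LSD1c. Cutting the 0 h list to the length of the 1 h list left -29.8 points. The 1 h library held 6990017 tags and the 0 h library 9418008, the lists 15208 and 16545 regions; the part of depth in the difference was not tested.

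H3K4me2 was called at both times at 733 sites (51.3%, against 53.5% of all LSD1n sites). It was called at 0 h and not at 1 h at 495 sites (34.6%, against 32% of all), and at 1 h and not at 0 h at 63 sites (4.41%, against 5.39%). The change in calls therefore ran in 1 direction at most sites where it occurred. Of the 495 sites, 248 (50.1%) still had a 1 h region within 500 bp. Over all 1430 sites, 76.1% had H3K4me2 within 500 bp at 1 h and 94.1% at 0 h. The regions that held a site were wide, with a median of 1394 bp at 1 h against 837 bp for all regions of that list. At 0 h the medians were 1767 bp and 1173 bp. Regions that held an LSD1n site without LSD1c were similar, at 1447 bp at 1 h and 1729 bp at 0 h. A wide region is more likely to hold any site. The mark was centred on the sites: 50.2% of site centres were inside a region at 1 h and 82.5% at 0 h, and 1000 bp away 27.7% and 38.1% of positions were.

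**Figure D3:**
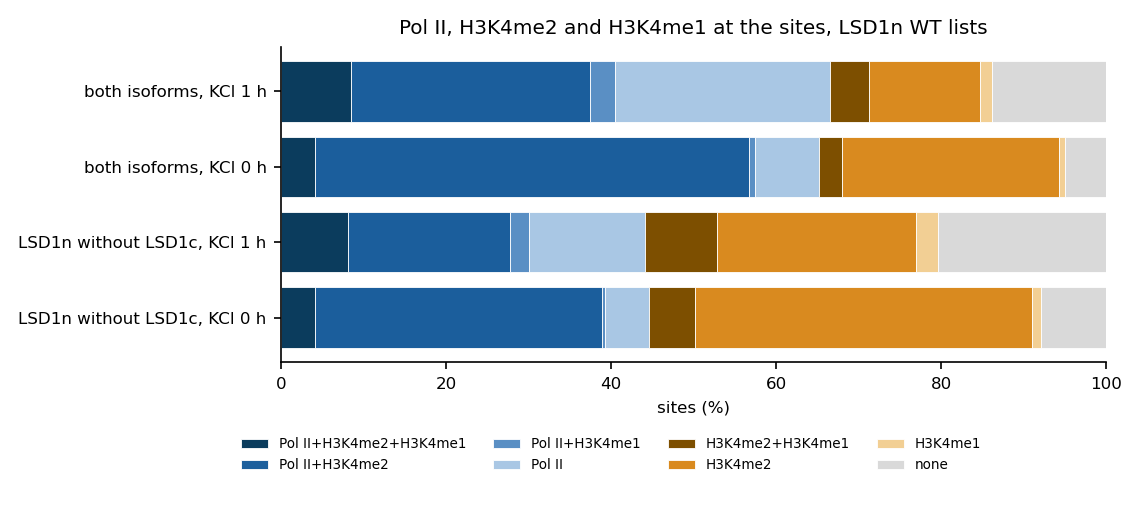
Sites divided by overlap with Pol II, H3K4me2 and H3K4me1 in LSD1n WT lists (x axis, % of sites), for sites of both isoforms and for LSD1n sites without LSD1c, each at KCl 1 h and 0 h (rows). Among sites of both isoforms, Pol II with H3K4me2 covers 29.0% at 1 h and 52.7% at 0 h, and Pol II without a called H3K4 mark 26.1% at 1 h and 7.76% at 0 h.

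The sites were then divided by Pol II, H3K4me2 and H3K4me1 together in LSD1n WT lists. Pol II with H3K4me2 and no H3K4me1 was found at 415 sites at 1 h (29.0%) and 753 at 0 h (52.7%). Pol II with neither mark was found at 373 sites at 1 h (26.1%) and 111 at 0 h (7.76%). H3K4me2 alone was found at 192 sites at 1 h (13.4%) and 377 at 0 h (26.4%), and none of the 3 at 197 sites at 1 h (13.8%) and 71 at 0 h (4.97%). The share with Pol II was thus alike at both times, while fewer of the sites with Pol II had a called H3K4me2 region at 1 h. LSD1n sites without LSD1c differed between the times in the same direction, with Pol II and H3K4me2 at 19.6% at 1 h and 34.8% at 0 h, and H3K4me2 alone at 24.2% at 1 h and 40.9% at 0 h.

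H3K4me1 flanked the sites more often than it covered them. It overlapped 302 sites in LSD1n KO at 1 h, or 21.1% (19.0 to 23.3), and 253 in LSD1n WT at 1 h, or 17.7% (15.7 to 19.8). At 0 h it overlapped 99 sites in KO, or 6.92% (5.66 to 8.36), and 118 in WT, or 8.25% (6.88 to 9.80). The background over all LSD1n sites was 22.7% (KO) and 20.4% (WT) at 1 h, and 7.81% (KO) and 10.1% (WT) at 0 h, so the sites of both isoforms were at or somewhat under it in each list. Positions inside a region peaked away from the centre: in KO at 1 h they made up 16.3% at the centre and 39.7% at 1100 bp, in WT at 1 h 14.6% and 33.2% at 1050 bp, in KO at 0 h 5.31% and 17.1% at 1150 bp, and in WT at 0 h 6.85% and 22.7% at 1000 bp. LSD1n sites without LSD1c had the same shape, with highest values of 39.6% (KO) and 32.7% (WT) at 1 h.

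**Figure D4:**
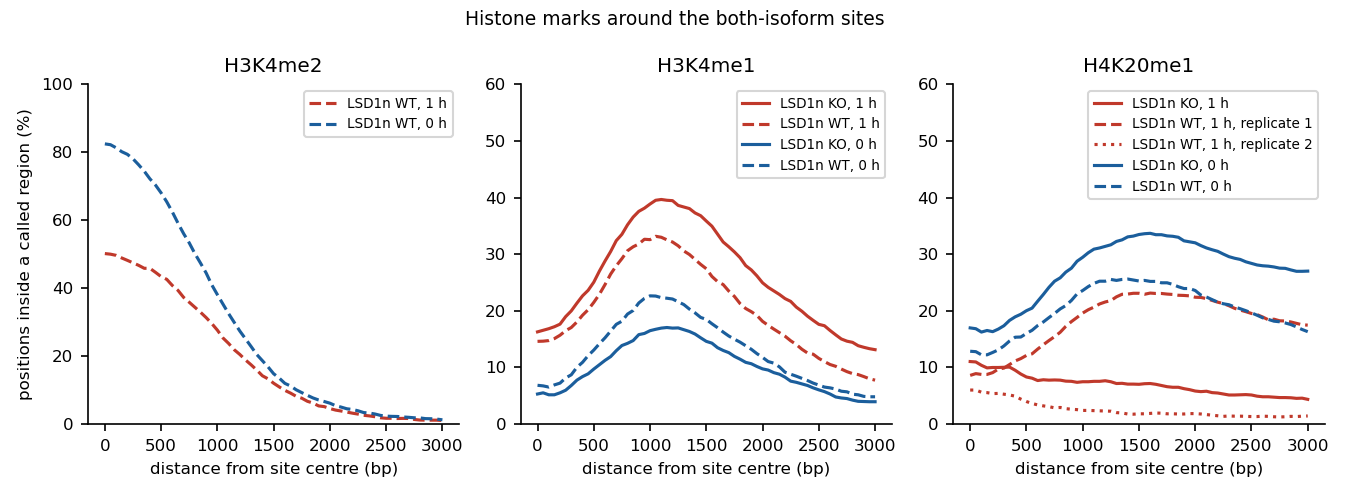
Share of positions (y axis, %; scales differ between panels) inside a called H3K4me2, H3K4me1 or H4K20me1 region by distance from the site centre (x axis, bp, both sides averaged), over the 1430 sites of both isoforms; each line is 1 library. H3K4me2 is highest at the centre (50.2% at 1 h, 82.5% at 0 h), while H3K4me1 is highest 1000 to 1150 bp away (39.7% in KO at 1 h).

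More of the sites had H3K4me1 at 1 h than at 0 h in both genotypes. The difference was 14.2 points in KO, with 247 sites called at 1 h alone and 44 at 0 h alone, and 9.44 points in WT, with 195 and 60. LSD1n sites without LSD1c differed by 15.2 points in KO and 10.7 in WT. With lists of equal length the sites of both isoforms differed by 6.43 points in KO and 8.18 in WT, against 9.88 and 9.42 without LSD1c. Of the 4 libraries, KO at 1 h was the deepest, at 34859557 tags and 62945 regions, against 22970480 tags and 33244 regions in KO at 0 h; the WT libraries held 23440511 tags and 44793 regions at 1 h, and 23973912 tags and 37204 regions at 0 h. Between genotypes the difference was 3.43 points at 1 h, KO minus WT, and -1.33 points at 0 h. At equal list lengths the 1 h difference was -0.77 points and the 0 h difference -0.98 points. At 1 h, 121 sites had H3K4me1 in both genotypes, 181 in KO alone and 132 in WT alone. Among the 2835 LSD1n sites without LSD1c these counts were 315, 350 and 303.

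H3K36me3 was rare at the sites. At 1 h it overlapped 21 sites in KO, or 1.47% (0.911 to 2.24), and 39 in WT, or 2.73% (1.95 to 3.71). At 0 h it overlapped 35 sites in KO and 35 in WT, each 2.45% (1.71 to 3.39). The background was 0.774% (KO) and 1.69% (WT) at 1 h and 1.38% (KO) and 1.48% (WT) at 0 h; sites without LSD1c had 0.423% to 1.16%. The criterion that dropped sites of all 8 targets removed sites with this mark: with them kept, WT at 1 h was at 6.68%. The KO lists were much shorter than the WT lists, at 3166 (KO) and 17465 (WT) regions at 1 h and 3685 (KO) and 11530 (WT) at 0 h. The difference between genotypes was -1.26 points at 1 h and 0 at 0 h with the lists as deposited, KO minus WT, and 0.42 and 1.26 points at equal lengths. Between 1 h and 0 h it was -0.98 points in KO and 0.28 in WT as deposited, and -0.91 and 0 at equal lengths.

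Within the sites, H3K36me3 calls went with Flag-LSD1c at 0 h. Of the 518 sites with it, 31 (5.98%) had H3K36me3 in KO at 0 h, against 4 of the 912 without it (0.439%). Both calls also went with place in the LSD1n list. Over its 4 stretches, H3K36me3 in KO at 0 h was at 6.92%, 0.794%, 0.560% and 0.362% of the sites of both isoforms. Flag-LSD1c at 0 h was at 43.4%, 33.3%, 33.3% and 33.0%. The part of list place was not tested. In WT at 1 h, 10 of the 952 sites with Pol II in that genotype and time had H3K36me3 (1.05%), against 6.07% of the 478 without Pol II. The 66 sites dropped by the 8-target criterion all had Pol II and H3K36me3 in some list, so the selection bears on these shares. The split with those sites included was not counted.

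H4K20me1 covered a minority of the sites, and more of them in LSD1n KO than in LSD1n WT at 0 h. At 1 h it overlapped 188 sites in KO, or 13.1% (11.4 to 15.0), against 159 in WT replicate 1, or 11.1% (9.54 to 12.9), and 106 in WT replicate 2, or 7.41% (6.11 to 8.89). At 0 h it overlapped 297 sites in KO, or 20.8% (18.7 to 23.0), and 229 in WT, or 16.0% (14.1 to 18.02). Over all LSD1n sites the background was 11.1% (KO), 10.1% (WT replicate 1) and 5.53% (WT replicate 2) at 1 h, and 19.3% (KO) and 14.6% (WT) at 0 h. The KO minus WT difference of 4.76 points at 0 h at these sites was thus close to that of all LSD1n sites. Of the sites, 181 had the mark at 0 h in KO and not in WT (12.7%, against 11.8% of all LSD1n sites), 113 in WT and not in KO (7.90%, against 7.08%) and 116 in both (8.11%, against 7.5%).

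The 0 h difference was 4.20 points when the KO list of 36291 regions was cut to the 25429 of WT, by width. The full 0 h lists covered 93.6 Mb in KO and 49.9 Mb in WT, with 19.6% and 10.5% of tags in regions. The cut kept the widest KO regions, so it matched the number of regions and not the genome covered. The 1 h difference depended on the WT library. It was 2.03 points against replicate 1 and 5.73 against replicate 2 as deposited, and 4.83 and -1.47 points at equal lengths. The 2 WT libraries differed from each other more than KO did from replicate 1: replicate 1 had 28453 regions with 10.2% of its tags in them, and replicate 2 had 2844 regions with 0.881%. KO at 1 h, with 9022 regions, shares its title prefix with replicate 2 and not with replicate 1. The 0 h libraries of both genotypes share 1 prefix, which no 1 h library of this mark has, so for H4K20me1 the KCl time and the prefix cannot be told apart. As deposited, fewer sites had the mark at 1 h than at 0 h, by -7.62 points in KO and by -4.90 (replicate 1) and -8.60 points (replicate 2) in WT. At equal lengths these were -2.80, -5.03 and 0.98 points.

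The H4K20me1 regions that held a site at 0 h were broad. Their median width was 6014 bp in KO and 3019 bp in WT, against 825 bp (KO) and 765 bp (WT) for all regions of these lists. In KO, 80 of 292 such regions were wider than 10 kb, and in WT 18 of 228 were. Regions that held an LSD1n site without LSD1c were broad too, with medians of 5268 bp (KO) and 3003 bp (WT). Of these, 145 of 518 (KO) and 42 of 387 (WT) were wider than 10 kb. A wide region is more likely to hold any site, so the breadth was not particular to sites of both isoforms. The mark was lower at the centre than beside it in these libraries: 17.0% of centres and 33.7% of positions at 1600 bp were inside a region in KO at 0 h, and 12.9% of centres and 25.6% of positions at 1400 bp in WT at 0 h. The WT replicate 1 library at 1 h had this shape too (8.60% and 23.1% at 1600 bp). KO and WT replicate 2 at 1 h were highest at the centre, at 11.05% and 6.01%. LSD1n sites without LSD1c had highest values of 29.0% (KO) and 21.9% (WT) at 0 h.

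Among the sites kept by the selection, those under H4K20me1 had Pol II less often. The 66 sites dropped for overlapping every target all had H4K20me1, Pol II and H3K4me2 in some list. The selection therefore bears on the shares below, and the split with those sites included was not counted. Among the 297 sites with H4K20me1 in KO at 0 h, Pol II overlapped 50.2% in KO at 1 h and 51.5% in WT at 1 h. Among the 1133 without it the shares were 71.2% and 70.5%. H3K4me2 at 1 h followed the same order, with 47.1% against 57.9%. At 0 h H3K4me2 differed less, with 82.5% (77.7 to 86.6) against 86.8% (84.6 to 88.7), and these intervals overlapped. Seen from Pol II, 16.1% of the 952 sites with Pol II in WT at 1 h had H4K20me1 in KO at 0 h, against 30.1% of the 478 without; in WT at 0 h the shares were 12.8% and 22.4%. H4K20me1 calls also depended on the place in the LSD1n list. Over the same 4 stretches of it, the share with the mark in KO at 0 h was 28.4%, 21.4%, 17.4% and 12.7%. LSD1n sites without LSD1c had 23.4%, 21.7%, 16.9% and 13.8%. For Pol II in WT at 1 h the order ran the other way, with 60.6%, 67.2%, 70.0% and 70.3% of the sites of both isoforms. LSD1n sites without LSD1c showed no such order for Pol II, at 44.4%, 41.8%, 44.9% and 45.3%.

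**Figure D5:**
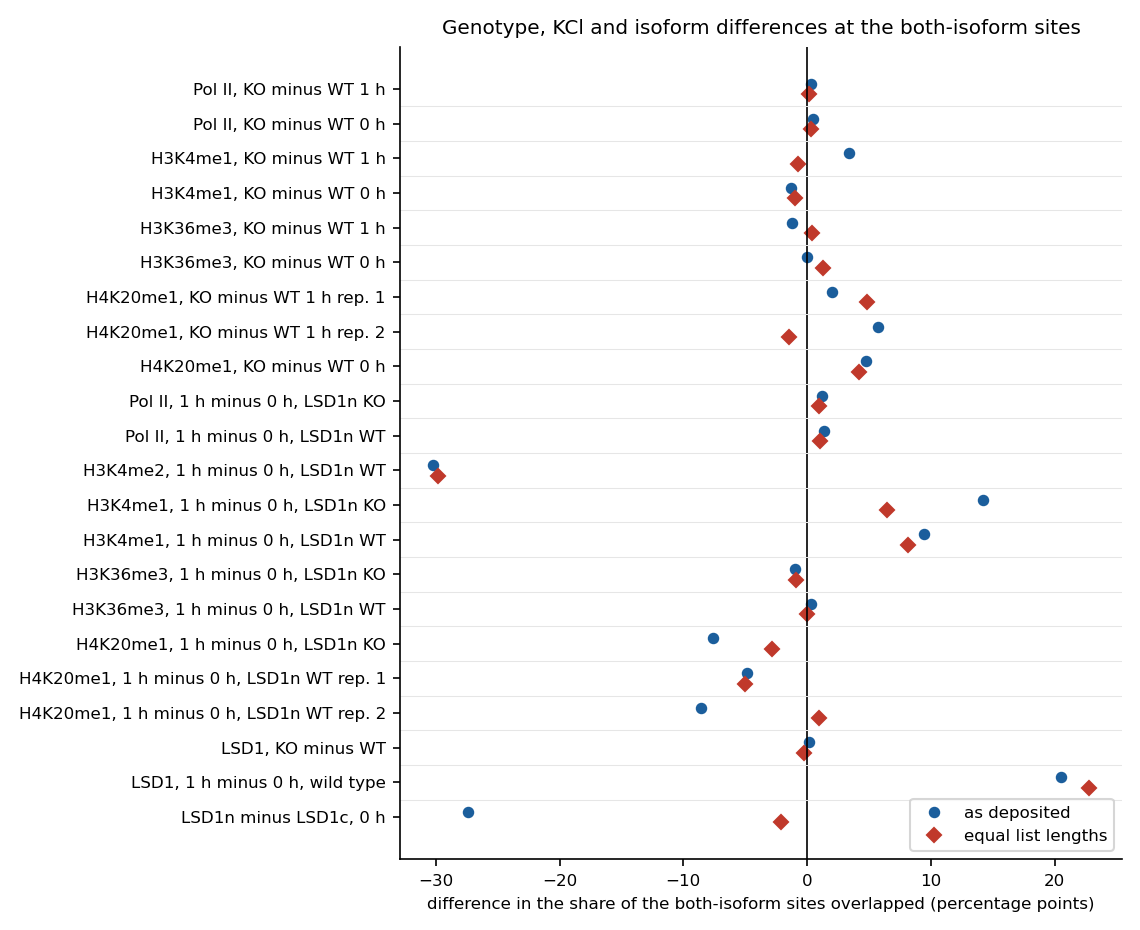
Difference in the share of the 1430 sites of both isoforms that overlapped a called region (x axis, percentage points, first list minus second), with the lists as deposited (circles) and with the longer list of each pair cut to the length of the shorter (diamonds). The KCl difference is -30.2 as deposited and -29.8 at equal lengths for H3K4me2, and 20.5 and 22.8 for wild type LSD1. Histone lists are cut by width, which does not match the genome covered. The isoform difference at 0 h is -27.4 as deposited and -2.10 at equal lengths.

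The LSD1 antibody was called at similar shares of the sites with and without LSD1n. It overlapped 260 sites in LSD1n KO, or 18.2% (16.2 to 20.3), and 258 in LSD1n WT at 0 h, or 18.04% (16.1 to 20.1). The background over all LSD1n sites was 18.3% (KO) and 19.9% (WT). The difference was 0.14 points, KO minus WT, and -0.21 at equal list lengths. The KO library has no KCl time in its labels, and the 2 libraries have different title prefixes and 31532169 (KO) and 17993780 (WT) total tags, so genotype, time and prefix cannot be told apart here. The equal shares did not come from the same sites: 123 sites were called in both (8.60%, against 9.52% of all LSD1n sites), 137 in KO and not in WT (9.58%, against 8.79%) and 135 in WT and not in KO (9.44%, against 10.4%). Within 500 bp the shares were 55.6% in LSD1n KO and 56.3% in LSD1n WT.

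In wild type neurons the antibody was called at more of the sites after KCl. It overlapped 606 sites at 1 h, or 42.4% (39.8 to 45.0), and 313 at 0 h, or 21.9% (19.8 to 24.1). The background was 31.7% at 1 h and 23.5% at 0 h. The difference of 20.5 points at sites of both isoforms, 22.8 at equal list lengths, compares with 2.05 and 3.67 points at LSD1n sites without LSD1c. LSD1c sites without LSD1n also had a high share at 1 h, 41.7% against 17.9% at 0 h. The 2 wild type libraries share a title prefix, and the 1 h list is the shorter, with 18457 sites against 22663 at 0 h. The antibody was called at 1 h and not at 0 h at 446 sites (31.2%, against 23.2% of all LSD1n sites), and at 0 h and not at 1 h at 153 (10.7%, against 15%). In a wider window the times differed less: within 500 bp, 78.0% of the sites had the antibody at 1 h and 69.5% at 0 h. The nearest antibody centre was a median of 250 bp away at 1 h and 423 bp at 0 h.

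All 4 antibody lists overlapped 68 sites (4.76%, against 3.02% of all LSD1n sites), and none of them 542 sites (37.9%, against 42.9%). Within 500 bp, 445 sites had all 4 (31.1%, against 28.2%) and 73 had none (5.10%, against 8.46%). The antibody was called in the WT list and both wild type lists but not in KO at 15 sites (1.05%, against 1.24%), and in KO alone at 51 sites (3.57%, against 3.49%). These genotype-specific patterns were therefore near the background. In the wild type library at 1 h the LSD1c centre of the pair was nearer to the antibody's centre than the LSD1n centre at 57.8% of 1058 sites, against 41.3% for LSD1n. In LSD1n KO the LSD1n centre was the nearer at 54.0% of 681 sites and LSD1c at 44.2%, and in LSD1n WT the same comparison gave 54.7% and 44.2% of 702 sites.

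Among the sites kept by the selection, antibody calls went with Pol II in opposite ways in the different libraries. The 66 sites dropped for overlapping every target all had Pol II and the antibody in some list. The selection therefore bears on the shares below, and the split with those sites included was not counted. The 952 sites with Pol II in WT at 1 h had the antibody in wild type at 1 h more often than the 478 without Pol II, at 49.9% against 27.4%. In the other 3 lists they had it less often, at 14.5% against 25.5% in LSD1n KO, 15.4% against 23.2% in LSD1n WT and 17.96% against 29.7% in wild type at 0 h. Sites that already had Flag-LSD1c at 0 h had the antibody more often than the rest in each list. The shares were 24.9% against 14.4% in KO and 26.4% against 19.3% in wild type at 0 h, with intervals apart. They were 21.8% against 15.9% in WT and 45.4% against 40.7% in wild type at 1 h, where the intervals overlapped.

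Over the 25 lists other than the 2 that chose them, the median site of both isoforms overlapped 7, with quartiles of 5 and 8, and the median LSD1n site without LSD1c overlapped 6. The extremes were 4 sites in no list and 1 site in 22. No mark and no Pol II was called at 17 sites (1.19%, against 1.78% of all LSD1n sites), and within 500 bp at 6 sites (0.420%, against 0.75%).

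Among the 10 sites that stood first in both Flag lists, by the sum of their positions, some overlapped far more lists than the median site. The first was chr9:3030079-3030279, at position 19 in the LSD1n list and 16 in the LSD1c list. It overlapped 21 of the 25 lists, with all 15 histone lists and all 4 antibody lists but no Pol II, and lay 3208 bp from a site that overlapped all 8 targets. Of the first 10, chr16:10975134-10975334, chr5:115372392-115372592, chr11:3001968-3002168 and chr11:3003891-3004091 had the same 21 lists, and chr2:181652085-181652285 had 17 of them with 14 histone lists. At 5 of the first 10 sites, then, every histone list was called and no Pol II list. The selection fixed this absence of Pol II. A site with both isoforms, all marks, the antibody and Pol II would have been dropped by the 8-target criterion. The gap to the nearest site that overlapped all 8 targets was 0 bp for the chr2 site. It was 1334 bp for chr11:3001968-3002168 and 3257 bp for chr11:3003891-3004091. For the chr16 and chr5 sites it was 168739 and 31699948 bp. In all, 30 of the 1430 sites lay within 100 kb of a site that overlapped all 8 targets.

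The other sites among the first 10 differed from these. At chr1:24619855-24620055 (positions 31 and 19) all 4 Pol II, all 4 antibody and 9 histone lists were called, among them both H3K4me2 lists and all 5 H4K20me1 lists. At chr4:118220758-118220958 (48 and 54) both 0 h Flag lists and all 4 antibody lists were called, with 1 Pol II and 1 histone list. A pair of sites on chromosome 6 was bare of nearly all marks. The first, chr6:125120936-125121136 (8 and 52), had both 0 h Flag lists, the antibody in wild type at both times and 1 histone list, H3K36me3 in WT at 1 h. The second, chr6:125123028-125123228 (33 and 74), had the same Flag and antibody lists and no mark or Pol II. At chr6:114566746-114566946 (89 and 79), which also had no mark or Pol II, the antibody was called in LSD1n KO too.

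Some sites had a pattern that differed by time or genotype, and those given here were among the first 2 of their pattern by summed position. At chr1:127457547-127457747 (positions 544 and 770) Pol II was called at 1 h in both genotypes and at 0 h in neither, with H3K4me2 at both times. At chr12:10397574-10397774 (701 and 109) the antibody was called in LSD1n WT and both wild type lists and not in LSD1n KO, beside Pol II in all 4 lists and H3K4me2 at both times. At chr16:17530688-17530888 (505 and 1625) the antibody had the same pattern, and Pol II was called in 2 lists. At chr1:85274312-85274512 (106 and 70) the antibody was called in LSD1n KO alone, with no Pol II and 6 histone lists, and at chr12:106674290-106674490 (200 and 168) in LSD1n KO alone with all 4 Pol II lists. At chr8:20020324-20020524 (73 and 71), where all 4 Pol II lists were called, and at chr13:100560863-100561063 (85 and 72), H4K20me1 was called at 0 h in KO and not in WT. At 1 h the chr8 site had this mark in KO and in WT replicate 2. The chr13 site had it at 1 h in WT replicate 1 and not in KO. Both sites had H3K4me2 and, in both genotypes, Pol II at 0 h. No mm9 sequence or gene annotation was used here, so these positions are given without genes or sequence.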

How the data were processed

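The authors deposited lists of called regions, whose unit is genomic positions (start and end in bp of mm9). Bowtie and HOMER were used, per the submitters' processing notes, which give no versions. Per the file headers, histone regions were stitched and sites of Pol II, LSD1 and Flag were given a fixed size of 200 bp and required 4-fold enrichment over the local 10 kb; fragments were 150 bp long, the false discovery rate was 0.001, at most 1 tag per position was counted, and no control library is named. In every deposited entry the score is 1, so lists were ranked by order (fixed-size sites) or width (histone regions).

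Overlaps of at least 1 bp were counted with Python 3.11.15 and numpy 2.4.6, intervals with scipy 1.17.1 and figures with matplotlib 3.10.9; the counting was checked on simulated lists. A second setting cut the longer list of a pair to the length of the shorter. For histone lists this kept the widest regions, so it did not match the genome covered. The sites named are the first 10 by summed positions in both Flag lists, and some of the first 2 of each pattern. Members, lists and patterns were chosen with earlier results of these data known. The 10 GRO-seq and 4 RNA-seq samples, gene lists, motifs and cell type markers are not analysed here, so the labelled cell type was not checked.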

Additional observations from a re-analysis of the deposited data

Results flagged for a closer look

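At the sites of both isoforms, the share with H3K4me1 differed between LSD1n KO and LSD1n WT by 3.43 percentage points at KCl 1 h and by -1.33 points at 0 h, KO minus WT. The opposite directions at the 2 times were what singled this out, and with 1 library per group the difference was not tested. With lists cut to equal lengths the directions were alike, at -0.769 points at 1 h and -0.979 points at 0 h. The share with H3K36me3 differed between KCl 1 h and 0 h by -0.979 points in LSD1n KO and by 0.280 points in LSD1n WT, 1 h minus 0 h. Here too the directions were opposite, and the difference was not tested. At equal list lengths they were not, with -0.909 points in LSD1n KO and 0 in LSD1n WT.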

How the results depend on the processing

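The number of sites was 883 when the isoforms had to share at least 50% of a site, 2578 when an LSD1c site within 1 kb sufficed, and 797 in the first 50% of the LSD1n list. In each group of values below, Pol II is given for KO and WT at 1 h, and H4K20me1 in WT at 1 h is the mean of 2 libraries that differ widely. With at least 50% shared, Pol II was at 70.2% and 70.4%, H3K36me3 in WT at 1 h at 3.74%, the antibody in wild type at 1 h at 46.1% and both isoforms at 0 h at 7.81%. With LSD1c within 1 kb, Pol II was at 52.9% and 51.9%, the antibody at 33.6% and both isoforms at 0 h at 3.92%. With sites of all 8 targets kept, H3K4me1 at 1 h was at 24.5% (KO) and 21.0% (WT), H3K36me3 in WT at 6.68%, H4K20me1 at 1 h at 16.3% (KO) and 13.1% (WT), the antibody at 21.6% (KO) and 21.5% (WT), and both isoforms at 0 h at 9.76%. In the first 50% of the list, Pol II was at 63.6% and 63.7%, H3K36me3 at 4.52%, H4K20me1 at 15.6% (KO) and 12.5% (WT), and both isoforms at 0 h at 8.66%. With a mark over at least 50% of the site, Pol II was at 44.4% and 44.5%, H3K4me2 at 1 h at 50.2%, H3K4me1 at 16.3% (KO) and 14.6% (WT), H4K20me1 at 11.05% (KO) and 7.31% (WT), and the antibody at 10.6% (KO), 11.5% (WT) and 21.7% (wild type, 1 h). With a mark within 500 bp, Pol II was at 94.7% and 94.8%, H3K4me2 at 76.1%, H3K4me1 at 52.0% (KO) and 47.2% (WT), H3K36me3 at 4.27%, H4K20me1 at 20.6% (KO) and 19.1% (WT; 27.2% in replicate 1, above KO, and 10.98% in replicate 2), the antibody at 55.6% (KO), 56.3% (WT) and 78.0% (wild type, 1 h), and both isoforms at 0 h at 8.81%. Counted over LSD1c sites, the antibody in wild type at 1 h was at 46.0%. Leaving out either WT library of H4K20me1 at 1 h gave 7.41% to 11.1%. At equal list lengths, 5 of 22 differences changed sign. For 2 of them the shares' intervals were apart as deposited: H4K20me1 KO minus WT replicate 2 at 1 h was -1.47 points, and 1 h minus 0 h in WT replicate 2 was 0.979 points. The others were KO minus WT in H3K4me1 at 1 h (-0.769), H3K36me3 at 1 h (0.420) and the antibody (-0.210). The cause was not tested. None of the 24 results differed beyond its interval with X and Y included, with sites within 1 kb counted once, or with sites within 100 kb of one of all 8 targets left out, an alternative chosen after seeing the data. No paired analysis was possible because groups held 1 library each, apart from H4K20me1 in WT at 1 h. Peak heights are not in the lists, so a change in signal within a called region is not measured. Settings that need gene starts or sequence (a distance of 5 kb to a gene start, a window of 300 bp) were not run.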
